A study of Homo sapiens with 42 samples.

Results

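HGF was compared with PBS after 24 h in MCF10A cells, an immortalised line of normal human breast epithelium, by reading open chromatin with ATAC-seq. The comparison took the 3 libraries labelled HGF and the 3 labelled PBS at that time, replicates A, B and C of each, so 6 of the 42 libraries of a series that spans 13 groups of ligand and time. Merging the overlapping peaks of these 6 libraries on chromosomes 1 to 22 and X gave 105689 sites. A peak was found in all 6 libraries at 21189 of them, in the 3 HGF libraries and no PBS library at 228, and in the 3 PBS libraries and no HGF library at 26. The cells of both groups had first been held in medium without EGF or insulin that kept horse serum, hydrocortisone and cholera toxin. HGF was then added at 40 ng/ml, and the PBS cells received the vehicle alone. Serum, hydrocortisone and cholera toxin were thus common to both groups, and no untreated 24 h culture other than PBS stands beside them. The labels give the replicates letters only, and the study's methods describe its assays as run on biological triplicates. The p-values measure the spread between these 3 libraries a group.

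HGF (hepatocyte growth factor, also called scatter factor) is made by stromal cells as an inactive precursor, is cut by serine proteases, and binds the receptor tyrosine kinase MET on epithelial cells. MET recruits the adaptors GAB1 and GRB2 and passes the signal to the RAS and MAPK cascade and to PI3-kinase, and breast epithelial cells respond with proliferation, branching and motility. In ATAC-seq the Tn5 transposase inserts adaptors where DNA is not wrapped in nucleosomes, so a peak marks an accessible promoter or enhancer.

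In a fit of these 6 libraries with all peaks kept, no site passed the test. Sites that leaned to HGF more often held a binding word of the TEAD factors, which bind DNA for the co-activators YAP and TAZ. Windows reaching 100 bases to either side of the summits of 8 sites are shown as examples of the words named below. They do not show how common a word was. They are reference sequence of the hg38 build, + strand, 5′ to 3′, and the capitals mark the words of AP-1, TEAD, RUNX, ETS, STAT, IRF and the glucocorticoid receptor, while words of the other motifs searched are not marked. The TEAD words searched were ACATTCCA, ACATTCCT, GCATTCCA and GCATTCCT, the AP-1 word TGACTCA, the RUNX word TGTGGTT, the ETS word CCGGAAGT, and the STAT words TTCCNAGAA, TTCCNGGAA, TTCTNAGAA and TTCTNGGAA. IRF and glucocorticoid receptor words were searched by longer patterns, and every word was read on both strands. A match is a run of letters and not a measured binding site.
The first 3 windows come from sites with a stronger peak in every HGF library after quantile normalisation. Of the 10 such sites of lowest p, they are the only ones with a TEAD word. They lie in an intron of RBKS (chr2:27799265-27799465, AP-1 and TEAD words), between genes on chromosome 10 with MBL2 nearest (chr10:53256663-53256863, TEAD) and in an intron of ASB4 (chr7:95492018-95492218, TEAD and RUNX).
RBKS: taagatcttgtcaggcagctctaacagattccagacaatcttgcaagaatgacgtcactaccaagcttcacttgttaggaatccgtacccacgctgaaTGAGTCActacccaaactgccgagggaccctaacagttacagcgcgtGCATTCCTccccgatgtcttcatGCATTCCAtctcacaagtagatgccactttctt
MBL2 (nearest gene): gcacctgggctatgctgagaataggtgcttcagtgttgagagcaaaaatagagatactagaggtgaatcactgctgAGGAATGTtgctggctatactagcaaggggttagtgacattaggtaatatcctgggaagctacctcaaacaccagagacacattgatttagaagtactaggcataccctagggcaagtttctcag
ASB4: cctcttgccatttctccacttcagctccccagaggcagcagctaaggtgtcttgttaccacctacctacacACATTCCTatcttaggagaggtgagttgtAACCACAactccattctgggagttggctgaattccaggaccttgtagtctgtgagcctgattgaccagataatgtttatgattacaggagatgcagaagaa
The next window comes from a site with a peak in the 3 HGF libraries alone, in an intron of FMNL2 (chr2:152440547-152440747, RUNX and ETS).
FMNL2: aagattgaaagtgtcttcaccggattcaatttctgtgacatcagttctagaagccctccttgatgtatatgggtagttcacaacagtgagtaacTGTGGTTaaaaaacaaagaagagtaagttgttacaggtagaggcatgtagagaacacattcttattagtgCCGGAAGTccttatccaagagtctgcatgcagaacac
The following pair passed the test when the 24 h and 48 h libraries were fitted together, and lie between genes with N6AMT1 (chr21:28393382-28393582) and ADARB2 (chr10:2112061-2112261) nearest. Both hold a TEAD word.
N6AMT1 (nearest gene): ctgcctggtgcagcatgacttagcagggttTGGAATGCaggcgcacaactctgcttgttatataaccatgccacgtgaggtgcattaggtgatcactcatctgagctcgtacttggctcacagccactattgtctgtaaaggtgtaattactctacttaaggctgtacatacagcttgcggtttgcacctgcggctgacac
ADARB2 (nearest gene): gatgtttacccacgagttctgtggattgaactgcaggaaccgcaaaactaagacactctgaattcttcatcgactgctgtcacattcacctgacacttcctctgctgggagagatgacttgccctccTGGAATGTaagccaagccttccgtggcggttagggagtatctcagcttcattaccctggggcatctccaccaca
The last 2 leaned to PBS. One, in an intron of TRIM16 (chr17:15630096-15630296), holds a glucocorticoid receptor word, and the other, with EMB nearest (chr5:49089242-49089442), holds STAT and IRF words.
TRIM16: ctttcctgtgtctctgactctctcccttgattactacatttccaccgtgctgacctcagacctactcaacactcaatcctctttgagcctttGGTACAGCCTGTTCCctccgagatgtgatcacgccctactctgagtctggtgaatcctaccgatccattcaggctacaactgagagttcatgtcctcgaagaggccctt
EMB (nearest gene): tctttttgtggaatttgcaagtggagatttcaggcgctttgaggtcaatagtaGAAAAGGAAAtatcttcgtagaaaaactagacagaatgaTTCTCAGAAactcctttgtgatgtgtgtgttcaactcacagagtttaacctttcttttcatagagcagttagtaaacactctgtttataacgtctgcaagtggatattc

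The number of peaks differed more between replicates than between HGF and PBS. HGF A, B and C held 99858, 85295 and 38134 peaks, and PBS A, B and C held 102160, 43898 and 37686. Replicate A was rich and replicate C poor in both groups, and B was rich in HGF alone. The mean log10 peak number was 0.09 higher in HGF (4.84 ± 0.22 against 4.74 ± 0.23, SD, n = 3 each, two-sided exact permutation p = 0.9, where 3 libraries against 3 cannot go below 0.1). Peaks within 1000 bp of a protein-coding start made up 25.98% ± 7.13 of HGF and 28.6% ± 7.17 of PBS peaks (SD, n = 3 each, exact permutation p = 0.8). The poorer a library was in peaks, the larger was its promoter share, which was 34.2% in HGF C and 35.1% in PBS C but 21.3% in HGF A and 20.9% in PBS A. The study's own sample sheet marks HGF C as failing its check on reads in peaks, so the results were also computed without it. Read depth was unknown, since the files hold peaks and not reads.

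**Figure D1:**
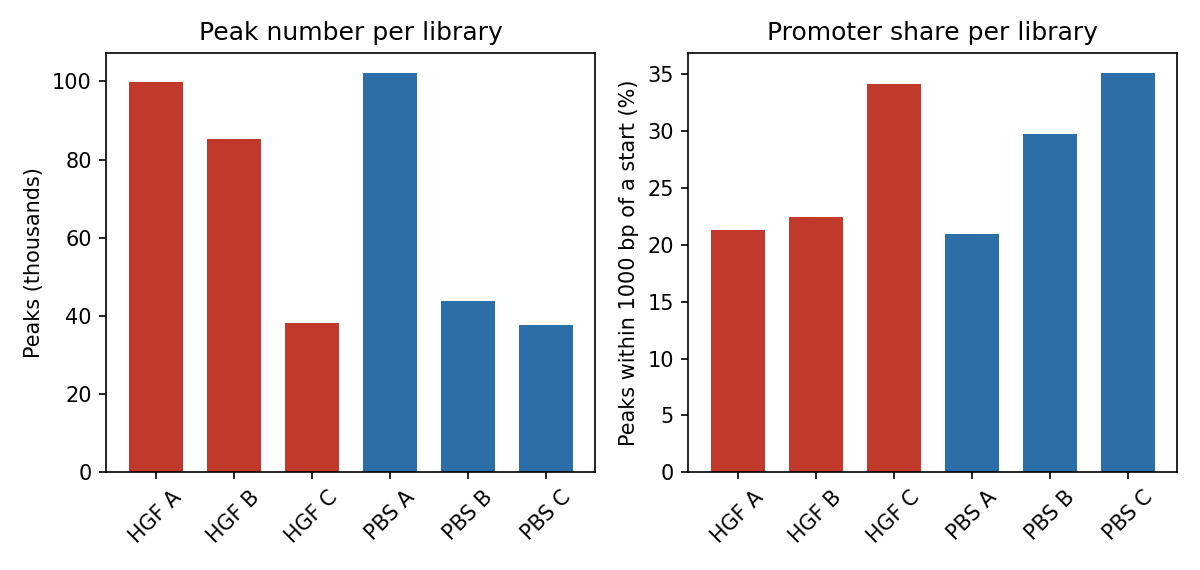
Number of peaks on chromosomes 1 to 22 and X (left, the axis in units of 1000 peaks) and the percent of them within 1000 bp of a protein-coding start (right) in each of the 6 libraries at 24 h, HGF in red and PBS in blue, 1 bar per library. HGF C (38134 peaks) and PBS B and C (43898 and 37686) are the libraries poor in peaks, and they have the largest promoter shares.

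The cell type was checked at the promoters of defining genes. Of 12 epithelial and basal markers, 6 had a promoter peak in all 6 libraries and 5 in some. TP63, a basal transcription factor, had none, and KRT14, a basal keratin, had one in HGF A alone. Of 18 markers of blood, endothelial, stromal, liver, nerve and muscle cells, 16 had no promoter peak in any library, CD14 had one in all 6 and COL1A2 in HGF A alone.

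The presence or absence of a peak was compared after removing each library's own rate of detection. Sites were grouped by how many of the 6 libraries had a peak there, and each library's share of detected sites in that group was subtracted from its call of 1 or 0. The correction mattered most for sites with a peak in 3 of 6 libraries, where HGF A detected 96.9%, HGF B 92.8% and PBS A 96.4%, against 4.27% in HGF C, 6.09% in PBS B and 3.54% in PBS C. Of 84500 sites with a peak in 1 to 5 libraries, 0 passed an adjusted p of 0.05 in limma (0%). An unadjusted p below that value was found at 479, all in patterns leaning to PBS. The smallest adjusted p was 0.474. In sites of these libraries only 62 patterns of presence are possible, so many sites share each p. A peak in the 3 HGF libraries and no PBS library had an unadjusted limma p of 0.103. The lowest unadjusted p of any pattern leaning to HGF was 0.0906. No such pattern could pass, so the 0 calls do not decide whether sites changed toward HGF.

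A complete switch toward HGF, a peak in the 3 HGF libraries and in no PBS library, was seen at 228 sites (0.27% of those tested), and the opposite switch at 26 (0.0308%). The adjusted difference was 0.71 for the first pattern and −1.29 for the second. The unadjusted limma p was 0.103 for the first and 0.0129 for the second, and the adjusted p was 0.474 for both. HGF A and B both being rich in peaks, the first pattern departs less from the libraries' own rates than the second. Neither passed the test, and the first could not have passed it. The HGF-only count rests on HGF C and PBS A: without HGF C the counts were 3851 and 79, and without PBS A, the library richest in peaks, 3507 and 91. Without PBS B or PBS C the HGF-only count was 248 or 243.

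The strongest of the 228 lay in an intron of NOL10, a nucleolar protein gene, at chr2:10654071-10654335. Its fold enrichment, the height of the peak over the local background as the peak caller gives it, was 12.8, 11.9 and 6.36 in HGF A, B and C, with no peak in PBS. The next, in an intron of CDC73, which encodes a subunit of the PAF1 transcription elongation complex, reached 13.5, 10.8 and 6.11. HGF C was the lowest of the 3 libraries at each of the 10 strongest sites. FMNL2, a formin that builds actin filaments at the cell edge, held an intronic site at 13.2, 11.8 and 4.08. The promoter of ITGB2, the beta subunit of the leukocyte integrins, had 8.10, 10.1 and 7.08. The reference sequence around its summit is a run of copies of a short repeat, whose part in this peak was not tested. The sites with AMIGO2, FAM171A1, COX18, CNTNAP3 and ENSG00000289503 nearest were also among the first 10.

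Promoters made up 10 of the 228 sites (4.39%), against 7.23% of all 19811 sites with a peak in 3 of 6 libraries, and 45.6% lay in introns. Besides ITGB2 they were the promoters of SCEL, RNF222, MACC1, RUBCNL, TOLLIP, LGALS3BP, SLC25A48, SLC16A5 and TNFRSF12A. MACC1 encodes a protein known as an activator of MET transcription, and its promoter had fold enrichments of 5.88, 5.80 and 6.18 in HGF A, B and C. TNFRSF12A encodes the TWEAK receptor, and its promoter had 2.41, 2.59 and 2.96. These promoter peaks were low to moderate and of like height in the 3 libraries. MACC1 and TNFRSF12A are singled out after their values were seen. Of the gene lists compared, sites of the HGF-only kind lay within 50 kb of CCNA2, CEBPG, DUSP6, GADD45A and KRT7. Each was the 1 such site of its list. The lists held 236 (cell cycle), 159 (ATF4 response), 294 (MAPK response and feedback), 185 (p53 family targets) and 130 (luminal) merged sites. Over all merged sites the count was 228 of 105689, and the other lists held 0.

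TEAD words were found within 100 bp of the summit at 33 of the 228 sites (14.5%), against 7.17% of the sites with a peak in 3 of 6 libraries and 6.23% of all merged sites. RUNX words were found at 31 (13.6% against 6.59%), and 5.75% of all merged sites held one. AP-1 words were as frequent as in the comparison sites (31.6% against 32.3%). RUNX factors are known in breast epithelium as regulators of differentiation, and AP-1 is the JUN and FOS dimer that MAPK signalling induces. GC content was like that of the comparison sites (median 47.3% in both). No test was made of these shares.

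**Figure D2:**
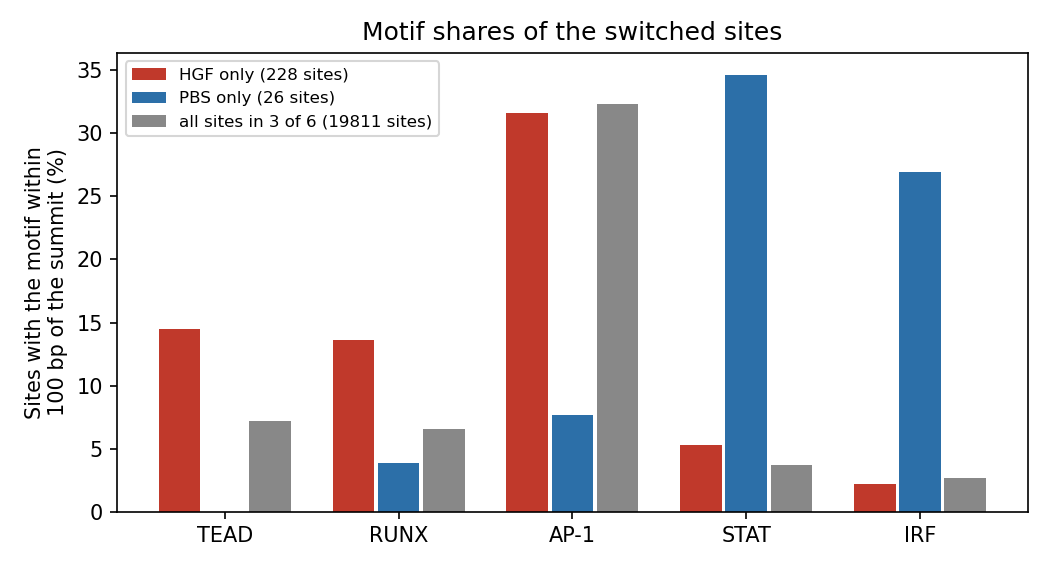
Percent of sites with each motif within 100 bp of the summit (y axis) for the 228 sites with a peak in HGF only (red), the 26 with a peak in PBS only (blue) and all 19811 sites with a peak in 3 of the 6 libraries (grey). TEAD and RUNX words are at 14.5% and 13.6% of the HGF-only sites, and STAT and IRF words at 34.6% and 26.9% of the PBS-only sites. Among all detected sites, STAT and IRF words were in excess in HGF C as well as in PBS B and C.

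Of the 26 PBS-only sites, none was a promoter, 14 (53.8%) lay over 500 kb from any protein-coding start against 5.70% of the comparison sites, and the median distance was 724410 bp. STAT words were found at 9 of them (34.6% against 3.68%), IRF words at 7 (26.9% against 2.70%), AP-1 words at 2 (7.69%) and TEAD words at 0. Among detected sites STAT and IRF words were also in excess in HGF C, which like PBS B and C was poor in peaks, as given below. Several lay in or beside the centromeres of chromosomes 1, 5, 7, 10 and 19, where the genome is repetitive. The site with EMB nearest, among those over 500 kb from a start, had fold enrichments of 5.05, 6.09 and 9.24 in PBS A, B and C at 24 h. At 48 h it had a peak in the 3 HGF and the 3 PBS libraries. Its peak thus did not separate HGF from PBS at the later time. Among the sites nearer to genes, an intron of RBM6, an RNA-binding protein gene, had 14.5, 6.01 and 5.95, and an intron of DNM3, which encodes a dynamin of membrane scission, had 15.4, 4.53 and 5.04. PBS A was far above B and C at both. The part of the repeats in these sites was not tested.

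The other libraries of the series show where else the 228 sites were open. Before treatment, 92.5% to 93.9% of them had a peak in the 4 control libraries at 0 h, against 86.4% to 89.0% of all sites with a peak in 3 of the 6 libraries, and 195 of the 228 had a peak in all 4 controls (85.5% against 72.3%). Most sites of both sets thus had a peak before the ligand was added. In the 4 EGF libraries at 24 h the share was 62.7%, 44.7%, 79.8% and 88.2%, against 40.5%, 20.5%, 69.6% and 79.9% for the comparison sites, higher in each library. All 10 of the strongest sites had a peak in the 4 control libraries and in at least 3 of the 4 EGF libraries.

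**Figure D3:**
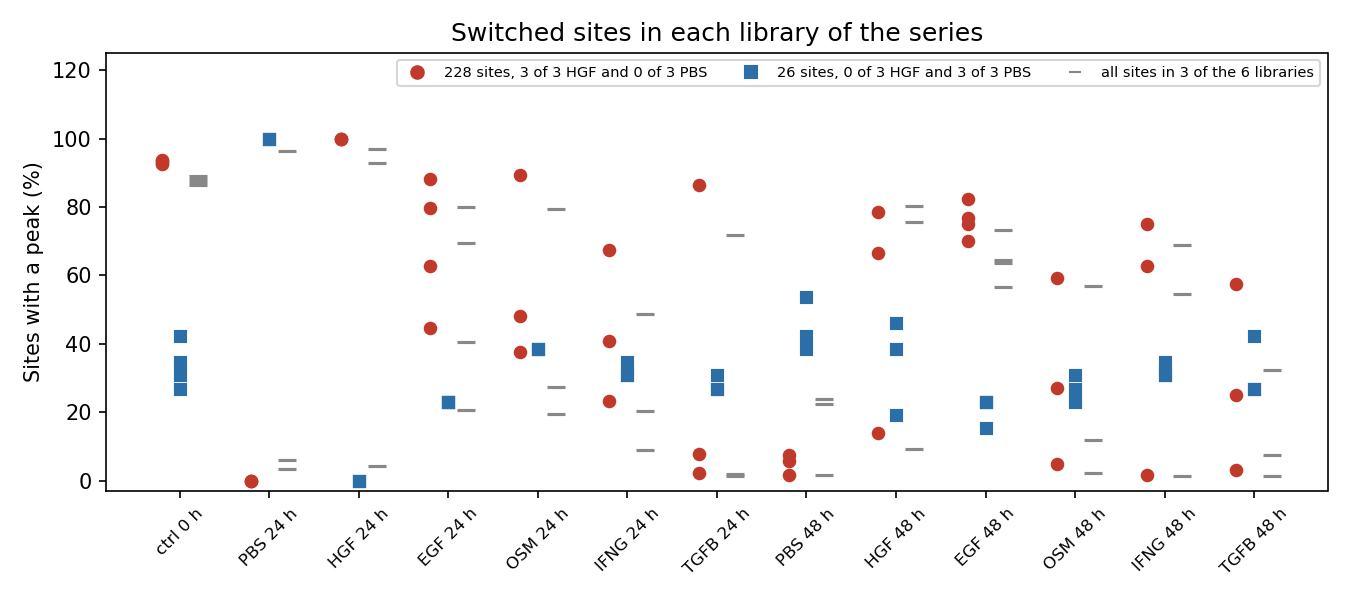
Percent of sites with a peak (y axis) in each of the 42 libraries, grouped by ligand and time (x axis), for the 228 HGF-only sites (red circles), the 26 PBS-only sites (blue squares) and all 19811 sites with a peak in 3 of the 6 libraries (grey dashes). The values at 0% and 100% in PBS 24 h and HGF 24 h follow from how the sites were chosen, and the 4 control libraries at 0 h sit at 92.5% to 93.9% for the HGF-only sites.

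At 48 h, in libraries that did not choose the sites, HGF A, B and C had a peak at 66.7%, 78.5% and 14.0% of the 228, and PBS A, B and C at 5.70%, 7.46% and 1.75%. The corresponding shares of the comparison sites were 75.6%, 80.2% and 9.28% in HGF and 23.9%, 22.5% and 1.74% in PBS. The comparison sites were not chosen for lacking PBS peaks at 24 h as the 228 were, and the difference was not tested. More HGF than PBS libraries had a peak at 191 of the 228 (83.8%), against 76.9% of the comparison sites, and at least 2 HGF and no PBS library had one at 120 (52.6% against 38.3%). The 48 h HGF libraries themselves held more peaks than the PBS ones (85331, 90494 and 33193 against 50176, 50031 and 15670), and the part of this in the difference was not tested. Of the 26 PBS-only sites, 12 had more PBS and 6 had more HGF libraries with a peak at 48 h.

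The strength of the peak was compared at the 21189 sites with a peak in all 6 libraries, on the log2 fold enrichment after quantile normalisation. No site passed an adjusted p of 0.05 in limma (0 of 21189, 0%, smallest adjusted p = 1.00), and 852 had an unadjusted p below it, 4.02% of all. Differences were small, with a median size of 0.14 and a 95th percentile of 0.43 on the log2 scale beside a median SE of 0.21. The 3 HGF values lay above the 3 PBS values at 1043 sites (4.92%) and below them at 912 (4.3%). Without HGF C, 25353 sites had a peak in the remaining 5 libraries, 0 passed in limma and 1512 had an unadjusted p below 0.05.

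**Figure D4:**
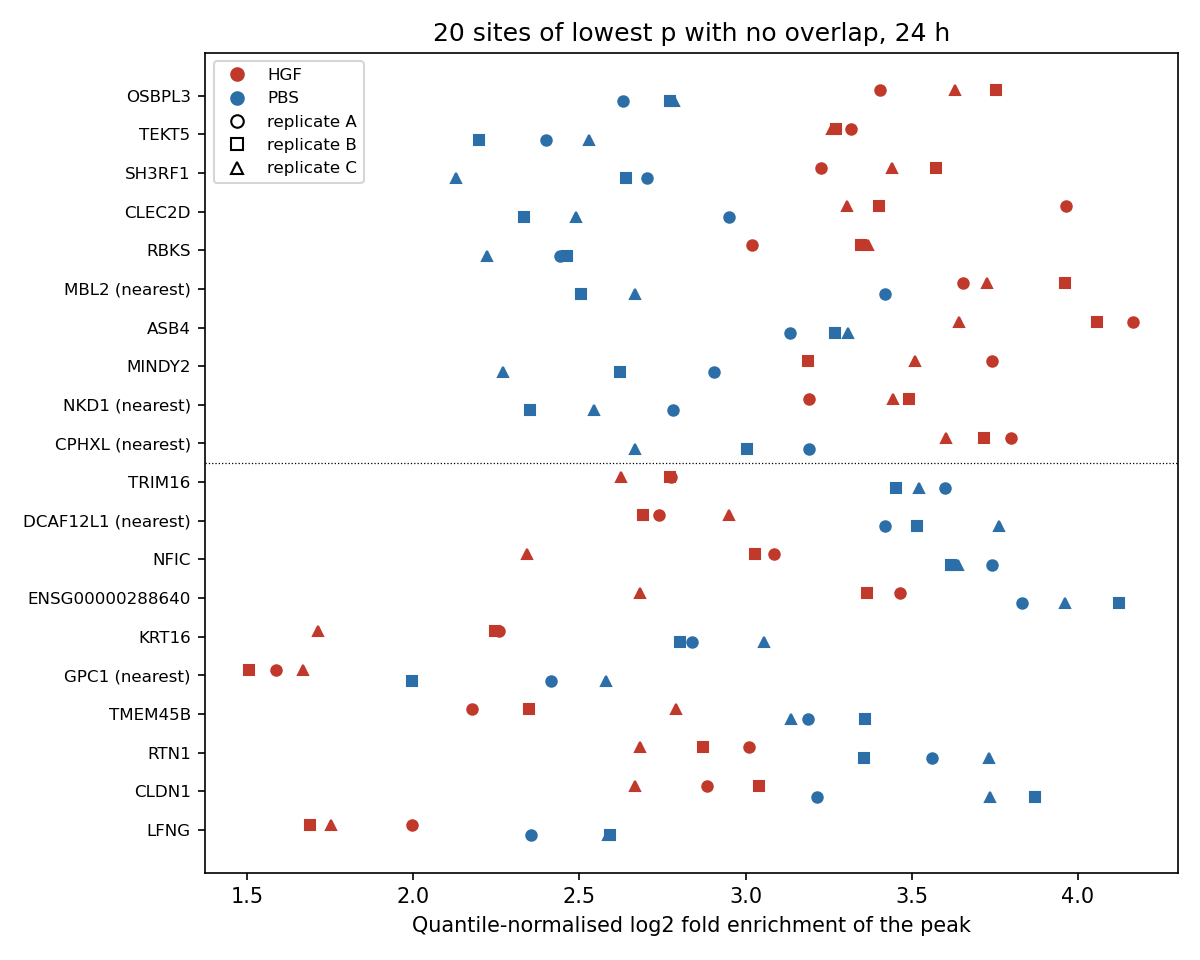
Quantile-normalised log2 fold enrichment (x axis) of the 10 sites of lowest p above and the 10 below the dotted line, HGF in red and PBS in blue, with 1 mark per library shaped by replicate. The groups were required not to overlap, so the separation is how the sites were chosen. None of the 20 passed the test after adjustment.

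Among the 10 sites of lowest p that were stronger in HGF, none was a promoter. The intron of OSBPL3, an oxysterol-binding protein gene, at chr7:24971041-24971755 had fold enrichments of 13.7, 15.9 and 9.09 in HGF A, B and C and 8.65, 5.47 and 5.40 in PBS A, B and C. Every HGF value lay above every PBS value, and the normalised difference was 0.87 (log2, SE 0.19, limma adjusted p = 1.00). SH3RF1, which encodes a scaffold of the JNK cascade, held an intronic site at 12.2, 14.2 and 7.82 in HGF and 9.22, 5.02 and 3.79 in PBS. Here HGF C lay below PBS A before normalisation and above it after, with a difference of 0.92 (SE 0.22). The RBKS intron shown above had 10.6, 12.2 and 7.38 against 7.40, 4.50 and 3.95, a difference of 0.87 (SE 0.21). Its lowest HGF value, that of C, was about level with PBS A before normalisation. The ASB4 intron had 21.04, 18.8 and 9.18 against 12.5, 7.85 and 7.71, a difference of 0.72 (SE 0.18). Again HGF C lay below PBS A before normalisation. The site with MBL2 nearest, 483979 bp from its start, had 15.9, 17.9 and 9.86 against 15.0, 4.62 and 5.04, and PBS A lay above HGF C before normalisation. The others were in introns of TEKT5 (0.91), CLEC2D (0.97) and MINDY2 (0.88), and near NKD1 (0.82), an inhibitor of Wnt signalling, and CPHXL (0.75).

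Of the 10 sites of lowest p that were weaker in HGF, 3 were promoters. KRT16, a keratin of stressed and activated epidermis, had 5.80, 5.42 and 3.07 at its promoter in HGF A, B and C and 10.2, 5.56 and 6.47 in PBS A, B and C. The highest HGF value was just above the lowest PBS value before normalisation, and the normalised difference was −0.83 (SE 0.22, limma adjusted p = 1.00). CLDN1, which encodes a tight junction claudin, had a site in an untranslated region with 9.62, 9.93 and 4.68 in HGF and 13.2, 12.4 and 10.6 in PBS. Its groups did not overlap on either scale, with a difference of −0.74 (SE 0.21). The TRIM16 intron had 8.85, 8.17 and 4.56 against 16.7, 9.03 and 9.01, a difference of −0.80 (SE 0.19) with no overlap. NFIC, an NF1 family transcription factor gene, held an intronic site at −0.85 (SE 0.21). The promoters of GPC1, a heparan sulfate proteoglycan gene, and of LFNG, which encodes a glycosyltransferase of Notch receptors, were at −0.74 and −0.70. At 48 h the difference could be computed for 4 of these sites and was −0.05 at CLDN1, −0.10 at TRIM16, −0.06 at ENSG00000288640 and −0.46 at NFIC.

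The sites that leaned each way differed in where they lay. Promoters were 19.9% of the 1043 sites stronger in HGF and 46.4% of the 912 weaker ones, against 38.4% of all sites with a peak in all 6 libraries. TEAD words were in 10.8% of the stronger and 2.63% of the weaker sites, against 4.89% of all. The median difference was −0.04 over promoter sites and 0.01 over the others. Since the sites were chosen on these differences, the shares are a description with no test.

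A motif's strength was taken in each library as the mean log2 fold enrichment of sites with the word minus that of sites without it, over the 21189 sites. Of 28 motifs, 1 had every HGF library above every PBS library (3.57%) and 3 had every HGF library below (10.7%). The 1 was TEAD, with 0.07, 0.08 and 0.02 in HGF A, B and C and −0.01, −0.01 and −0.06 in PBS A, B and C at 1037 sites. The difference was 0.08 (0.06 ± 0.03 against −0.03 ± 0.03, SD, n = 3 each, exact permutation p = 0.1, the smallest this design allows, adjusted p = 0.7 over 28 motifs). It kept this separation under each of the 11 alternatives computed for it, and was 0.10 without HGF C. Without that library, 9 of the 28 motifs were higher in HGF with no overlap and 9 lower, so TEAD was not alone there. Leaving out a library cannot make separated groups overlap, and the replicate block leaves these values unchanged, so those alternatives could not have shown a loss. The alternatives that could were a 50 bp window (0.09), median centring (0.08), quantile normalisation within classes of GC content (0.07) and the presence of peaks, given below. Away from promoters the values were 0.05, 0.06 and 0.07 against −0.02, −0.01 and −0.02. At the 133 promoter sites with the word the groups overlapped, with −0.07, −0.04 and −0.08 against −0.13, −0.06 and −0.15 (exact permutation p = 0.3).

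The glucocorticoid receptor word lay lower in HGF, with −0.09, −0.09 and −0.14 against −0.04, −0.02 and 0.01 at 63 sites, a difference of −0.09 (exact permutation p = 0.1, adjusted p = 0.7). Hydrocortisone, the ligand of this receptor, was in the medium of both groups. NF-kappaB and ETS words were lower by 0.03 each with the same p, and NF-kappaB is the factor of inflammatory signalling. After quantile normalisation within classes of GC content the ETS difference was −0.01 and that of NF-kappaB −0.02, both with overlap, and NF-kappaB overlapped also with a window of 50 bp, whereas the glucocorticoid receptor word kept its separation in both. The separation was narrow, at −0.07 for HGF A and −0.07 for PBS B in the case of NF-kappaB. AP-1 words overlapped between the groups, with 0.18, 0.20 and −0.02 in HGF and 0.14, 0.09 and −0.02 in PBS. The C libraries stood apart from A and B in both groups.

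**Figure D5:**
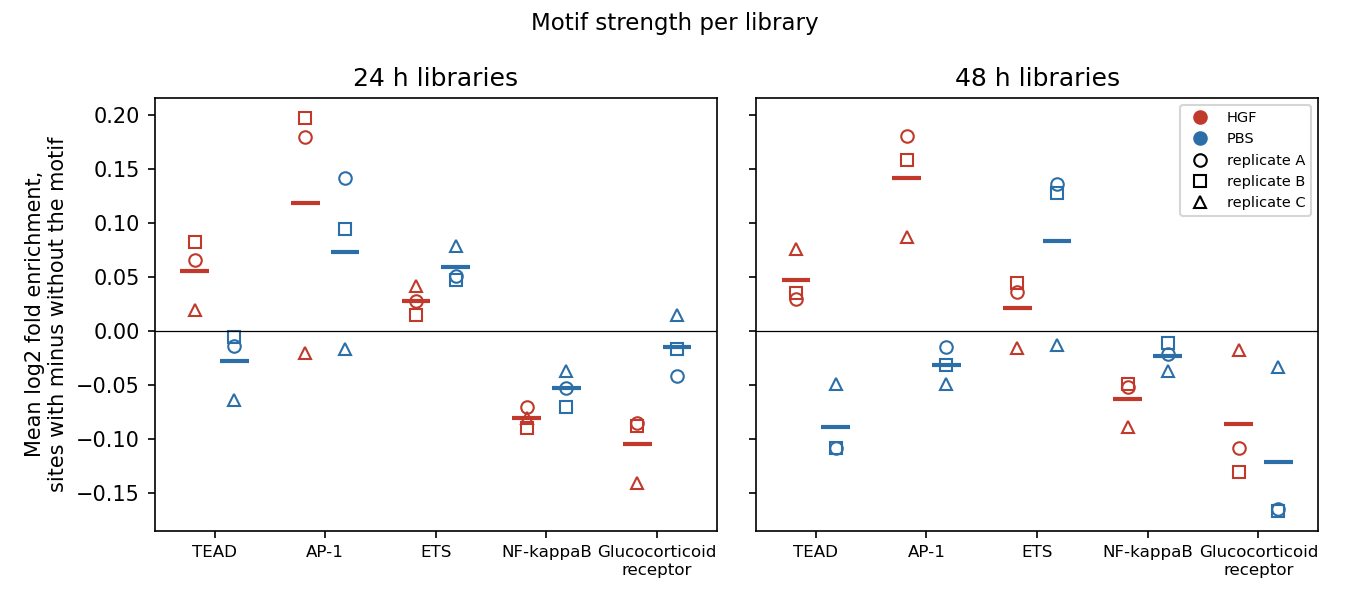
Motif strength (y axis, mean log2 fold enrichment of sites with the word minus sites without it) for 5 motifs in the 24 h libraries (left) and the 48 h libraries (right), HGF in red and PBS in blue, with 1 mark per library shaped by replicate and a bar at the group mean. TEAD lies higher in HGF than in PBS at both times, from 0.02 to 0.08 in HGF at 24 h, and the glucocorticoid receptor word separates the groups at 24 h only.

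The presence of peaks gave the same order for TEAD. The number of detected sites with the word was divided by the number expected from each library's detection rate in its site groups. For TEAD the excess over 1 was 0.06, 0.06 and 0.12 in HGF A, B and C (4358, 3567 and 802 sites) and −0.08, −0.08 and −0.15 in PBS A, B and C (3914, 960 and 577 sites), a difference of 0.18 (exact permutation p = 0.1, adjusted p = 0.4). The C libraries, poorest in peaks, were the farthest apart. RUNX words were at 0.03, 0.07 and 0.02 against −0.03, −0.06 and −0.24, and the glucocorticoid receptor word at 0.00, −0.14 and −0.46 against 0.12, 0.23 and 0.10. In all, 5 of 28 motifs were higher in HGF with no overlap (17.9%: TEAD, RUNX, NF1, EGR and the SNAI and ZEB E-box) and 2 were lower (7.14%: the glucocorticoid receptor word and the ATF4 and C/EBP composite). ETS, lower in HGF by strength, was higher by this count, with a difference of 0.12 and overlapping groups. STAT words were at −0.17, −0.13 and 1.11 in HGF A, B and C and −0.18, 0.60 and 0.79 in PBS A, B and C. IRF words were at −0.17, −0.08 and 0.70 against −0.09, 0.46 and 0.61. The groups overlapped for both, and the excess was in the libraries poor in peaks of either group.

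At 48 h TEAD lay at 0.03, 0.03 and 0.08 in HGF A, B and C and −0.11, −0.11 and −0.05 in PBS A, B and C, again with no overlap. At that time 12 of the 28 motifs were higher in HGF with no overlap (42.9%) and 9 lower (32.1%), so non-overlap was common there. The glucocorticoid receptor word had the opposite sign at 48 h, a difference of 0.04 with overlapping groups (exact permutation p = 0.5). Permuting labels within each time over both times gave an exact p of 0.005 for TEAD and for NF-kappaB, the smallest it allows, with an adjusted p of 0.07 over the 28 motifs. This test was chosen after the 24 h values were seen.

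Of the 21189 strength sites, 10632 had a peak in all 12 libraries of the 2 times, and there the 48 h values can be set beside those at 24 h. A peak in each 48 h library was needed, so 328 of the 1043 stronger and 508 of the 912 weaker sites remained. Of the 328 of these that had been stronger in HGF with no overlap at 24 h, 239 (72.9%) were higher in HGF at 48 h, and of the 508 that had been weaker, 188 (37.0%), against 48.1% of all 10632. At 48 h alone 0 sites passed in limma (1670 with an unadjusted p below 0.05, smallest adjusted p = 0.0772). In 1 fit of the 12 libraries, 33 sites passed for the 48 h contrast and 0 for the 24 h contrast (332 with an unadjusted p below 0.05). The difference between the times was tested in that fit, and 0 sites passed in limma (597 with an unadjusted p below 0.05, smallest adjusted p = 0.834).

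Averaging the 24 h and 48 h contrasts in 1 fit, a comparison added after the 24 h results were known, gave 15 sites higher in HGF (0.141% of 10632) and 2 lower (0.0188%) at a limma adjusted p below 0.05. The site near N6AMT1 had fold enrichments of 19.4, 19.7 and 10.4 in HGF and 15.3, 10.2 and 8.79 in PBS at 24 h, and 17.1, 16.9 and 10.9 against 8.61, 9.14 and 4.18 at 48 h. It rose by 0.75 over both times (log2, SE 0.11, adjusted p = 0.0149), with 0.48 at 24 h and 1.02 at 48 h. The site near ADARB2 rose by 0.68 (SE 0.11, adjusted p = 0.0149), with 0.61 and 0.76. A site in an intron of RHEB, the GTPase that activates mTORC1, rose by 0.76. A site 129431 bp from DUSP10, a phosphatase of JNK and p38, rose by 0.70. TENM2, BCAP29, CHP1 and ATRN held rising sites too, as did regions nearest KLF5, NR5A2, KIF4B, NWD2 and LRATD1. The contrast was larger at 48 h than at 24 h at each of the sites named here, though no site differed between the times by the test above.

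The 2 that fell lay near MMP7, a matrix metalloproteinase gene, and in BMF, a pro-apoptotic BCL2 family gene. The first, 29973 bp from the MMP7 start, had 8.14, 8.27 and 5.04 in HGF and 13.3, 8.16 and 8.41 in PBS at 24 h, where the groups overlapped before normalisation at B. At 48 h it had 7.20, 6.73 and 4.099 against 11.2, 9.99 and 6.70. It fell by 0.63 over both times (SE 0.12, adjusted p = 0.0339), and the BMF site fell by 0.64 (SE 0.13, adjusted p = 0.0492). Both held a MYC E-box word (CACGTG), as did the rising site near N6AMT1 and 5.03% of the strength sites.

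When each library was cut to its 37686 strongest peaks, the number in the poorest library, presence was tested at 36871 sites without a correction. Then 504 sites were called higher in HGF (1.37%) and 301 lower (0.816%), with a smallest adjusted p of 0.0212 in limma. Every one of these was a complete switch, the pattern that leaves no spread within a group. TEAD words were in 15.3% of the 504 and 2.99% of the 301, against 6.87% of all sites of these lists with a peak in 3 of 6 libraries. RUNX words were in 12.9% and 4.32%, against 5.89%. Promoters were 3.77% of the 504 and 15.9% of the 301, against 11.9%, and the 301 lay at a median of 30524 bp from a start, so they differ in place from the 26 PBS-only sites found with all peaks. Of the 504 and 301, 28 and 3 were complete switches when all peaks were kept. Most thus had a peak of the full lists in some library of the other group. Such a peak was not always lower. In an intron of SIK2, called higher in HGF, PBS A had 11.2 against 9.39 in HGF C. In an intron of MACROD2, called lower, HGF A had 9.41 against 7.05 in PBS C. The cut took the most peaks from the libraries richest in peaks, and its part in these calls was not tested. With 1 fit over all 13 groups the 24 h contrast called 20 sites higher (0.019% of 105131) and 18 lower (0.0171%). Of these, 17 and 12 had a peak in 2 of the 42 libraries.

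The HGF and MET genes showed little difference. Of 23 genes of this axis, 15 had a promoter peak in all 6 libraries and 5 in some (ST14, SOS1, SRC, CD44 and PTPRJ). HGF itself, its activator HGFAC and the protease HPN had none. The promoter of the receptor MET had 15.8, 11.8 and 10.8 in HGF A, B and C and 13.7, 10.3 and 12.2 in PBS A, B and C. The groups overlapped and the difference was −0.01 (SE 0.20, limma adjusted p = 1.00). The adaptor GAB1 was at 0.01 (SE 0.20), and the adaptor GRB2 at 0.17 (SE 0.18). Within 50 kb of the 23 genes, 55 strength sites were tested, of which 2 were higher with no overlap (3.64% against 4.92% of all sites), near SPINT1 and ST14, and 0 lower (against 4.3%), with a median difference of −0.02 beside −0.01 over all sites. SPINT1 encodes an inhibitor of the HGF-activating proteases and ST14 the protease matriptase, and neither site passed the test.

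Other lists around MET signalling likewise held no site that passed in limma within 50 kb. The 100 sites of the MAPK response and feedback genes had 5 higher and 5 lower with no overlap, near the 4.92% and 4.3% of all sites, and a median of −0.04. At promoters, DUSP4, a phosphatase of ERK, was at −0.50 (5.10, 5.70 and 4.30 in HGF, 8.94, 5.86 and 5.95 in PBS), and DUSP6, another, at −0.01 with overlap. A site 598 bp from the EGR2 start was higher at 0.55 (7.72, 7.82 and 5.78 in HGF, 6.21, 3.56 and 4.29 in PBS). There HGF C lay below PBS A before normalisation. Of the 22 promoter sites of this list, 1 was higher with no overlap (4.55% against 2.55% of all promoter sites) and 3 lower (13.6% against 5.19%). The 68 sites of motility, protease and matrix genes had 1 higher (1.47% against 4.92% of all sites) and 7 lower (10.3% against 4.3%) and a median of −0.02. ITGB4, the integrin of hemidesmosomes, was higher with no overlap at its promoter after normalisation, at 0.38 (7.71, 8.74 and 6.22 in HGF, 7.43, 4.85 and 4.40 in PBS), though HGF C lay below PBS A before it. LAMB3, a laminin chain of the same structures, was lower at −0.74 (4.51, 5.28 and 2.81 against 6.03, 6.38 and 5.35). These 2 members of one adhesion structure leaned in opposite ways, and neither passed after adjustment. The lists of EGFR ligands and receptors, cell cycle, luminal and basal genes, p53 family targets and the ATF4 response had 24 to 81 strength sites each, medians between −0.08 and 0.05, and 0 sites called.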

How the data were processed

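The authors trimmed reads with Trimmomatic 0.36.5, aligned them to hg38 with Bowtie2 2.3.4.1, removed mitochondrial, secondary and duplicate reads (Picard) and called peaks per library with MACS2 2.1.1.20160309.5. The deposited peak lists give each peak's fold enrichment (a ratio), score, −log10 p-value and −log10 q-value. No read counts were analysed here, so depth was unknown and precision rests on 3 libraries a group. Peaks overlapping by 1 bp were merged over the 6 libraries. Detection was adjusted within classes of sites by the number of libraries with a peak. Strength was compared on quantile-normalised log2 fold enrichment at sites with a peak in all 6. Both were fitted with limma 3.58.1 in R 4.3.3 with Benjamini-Hochberg adjustment over all sites, and single values by two-sided exact permutation tests. Genes came from GENCODE release 44 (protein-coding starts, promoters within 1000 bp). Motif words were searched within 100 bp of each summit on both strands. Named sites were the 10 of lowest p each way with no overlap, and the 10 complete switches each way with the highest mean fold enrichment. Members, lists and tests were chosen with earlier results of these data known. Same-letter libraries did not deviate together in every pair (correlations 0.41, −0.02 and 0.35), so letters were not used to pair them. Alternatives covered normalisation, peak threshold, overlap, fits and each library left out. The scripts were tested on simulated data. Of the named sites, 2 are not reported here.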

Additional observations from a re-analysis of the deposited data

How the results depend on the processing

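With 3 libraries a group and peak numbers from 37686 to 102160, the count of detection calls stayed at 0 in 16 of the 18 alternatives. It was 805 with the 37686 strongest peaks a library and 38 in 1 fit over the 13 groups. In the main fit no pattern of presence leaning to HGF could pass, so that count does not decide whether sites changed toward HGF. The count of strength calls was 0 in each alternative but the mean of both times, where it was 17 (chosen after seeing the data, as were peak number as a covariate, the A and C pairs alone and permutation within both times). Complete switches numbered 504 HGF-only and 301 PBS-only with the strongest peaks, and 105 and 11 with a −log10 q of at least 5. Leaving out 1 library gave 243 to 3851 HGF-only and 47 to 257 PBS-only sites. The largest HGF-only counts (3851 and 3507) came without HGF C and without PBS A. For PBS-only sites, dropping HGF A, B or C left 103, 47 or 79, while dropping PBS A, B or C left 91, 150 or 257. The peak number difference ran from −0.00238 without both B libraries to 0.23, and the promoter share difference from −6.73 to 0.63 points, with the opposite sign without PBS C. ETS was 0.12 by detected over expected sites. With the replicate letter as a block, 0 sites were called for detection (748 with an unadjusted p below 0.05) and 0 for strength (1457, smallest adjusted p = 0.487). The cause of these differences was not tested.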
